A study of Mus musculus with 2 samples.

Results

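The Src family kinases, their inhibitory kinase Csk and the ubiquitin ligases Cbl and Cblb were followed in mouse macrophages and osteoclasts. Of the 8 genes Src, Lyn, Fyn, Fgr, Yes1, Csk, Cbl and Cblb, 7 were read by 17 probe sets, each carrying that gene's symbol alone, out of 34945 single-symbol probe sets for 18193 genes. Lyn was not analysed here. A probe set is a group of short array oligos that together report 1 transcript region. The series holds 2 Affymetrix arrays, 1 of bone marrow derived macrophages and 1 of bone marrow derived osteoclasts, both of strain C57/Black6 and from mice aged 8 weeks. Marrow was grown for 3 days in M-CSF, the growth factor of the macrophage lineage, and the adherent cells were taken as shared progenitors. These were kept either in M-CSF alone or in M-CSF plus RANKL, the inducer of osteoclast formation, and lysed after 6 days. The labels do not say whether the 6 days include the first 3, how many animals were used, or whether both cultures came from the same animals.

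Src family kinases sit on the inner face of the plasma membrane and pass signals from integrins, growth factor receptors and immune receptors into the cell. Csk holds them in a closed, inactive form by phosphorylating a tyrosine in their tail, and phosphatases that remove this phosphate open them again. Cbl and Cblb bind activated tyrosine kinases and mark them and their receptors with ubiquitin, and Cbl is also a scaffold for actin regulators. In osteoclasts Src is known for its need in forming the ruffled border and in turning over podosomes, the adhesion structures of the resorbing cell, and mice without Src have dense bone.

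With 1 array per group nothing could be tested and no p-value is printed. Signals of the osteoclast array ran lower throughout, with a median log2 difference of -0.43, or 1.35-fold, over 23708 probe sets. Differences below are log2 of osteoclast over macrophage relative to this shift, unless they are called deposited. A signal counted as measured from a floor of 17.0 for macrophages and 14.4 for osteoclasts, the 40th percentile of all probe sets. The only error the data hold is the spread between probe sets of 1 gene, with an SD of 0.49 on the log2 scale over 5435 genes, which contains no variation between cultures or animals. The cell labels were checked against defining markers: all 10 osteoclast markers passed 2-fold on the higher side in the osteoclast array, and of 10 macrophage markers 5 passed it on the lower side and 0 on the higher. Markers of several other blood cells with a probe set were mostly dim. In each array, 4 of 7 B cell, 5 of 7 mast cell and basophil and 2 of 4 erythroid markers lay under the floor. Not all of these were the same markers in both arrays. Granulocyte markers, given below with Fgr, were not mostly dim: of 12 with a probe set, 3 lay under the floor in macrophages and 1 in osteoclasts. Of 8 megakaryocyte markers 1 was 2-fold higher and 2 were lower, with a summed signal of 8861 in macrophages and 1987 in osteoclasts, most of it from Pf4 (8488 and 1609). The female-cell RNA Xist had a macrophage signal of 1872 and an osteoclast signal of 22.1, and the Y-linked Eif2s3y gave 0.571 and 321. Differences between the animals and between the treatments therefore cannot be told apart in any value below.

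Within the family the members went different ways. Src and Fgr were higher in osteoclasts by every probe set, Fyn was lower by both of its probe sets, Yes1 was near background, and Csk and Cbl stayed within 2-fold relative to the shift. Cblb was above the shift by all 3 of its probe sets. Read from the brightest probe set of each gene, 2 of the 7 genes passed 2-fold on the higher side and 0 on the lower, where 7.11% and 6.99% of the 13647 genes measured in at least 1 array did so. With the deposited values, 2 passed on the higher side and 2 on the lower, Fyn and Yes1, against 2.997% and 17.5% of all genes. The median of the 7 genes was -0.10, against 0.00 for all genes. In these bulk samples, fewer cells of a type and less RNA per cell cannot be told apart.

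**Figure D1:**
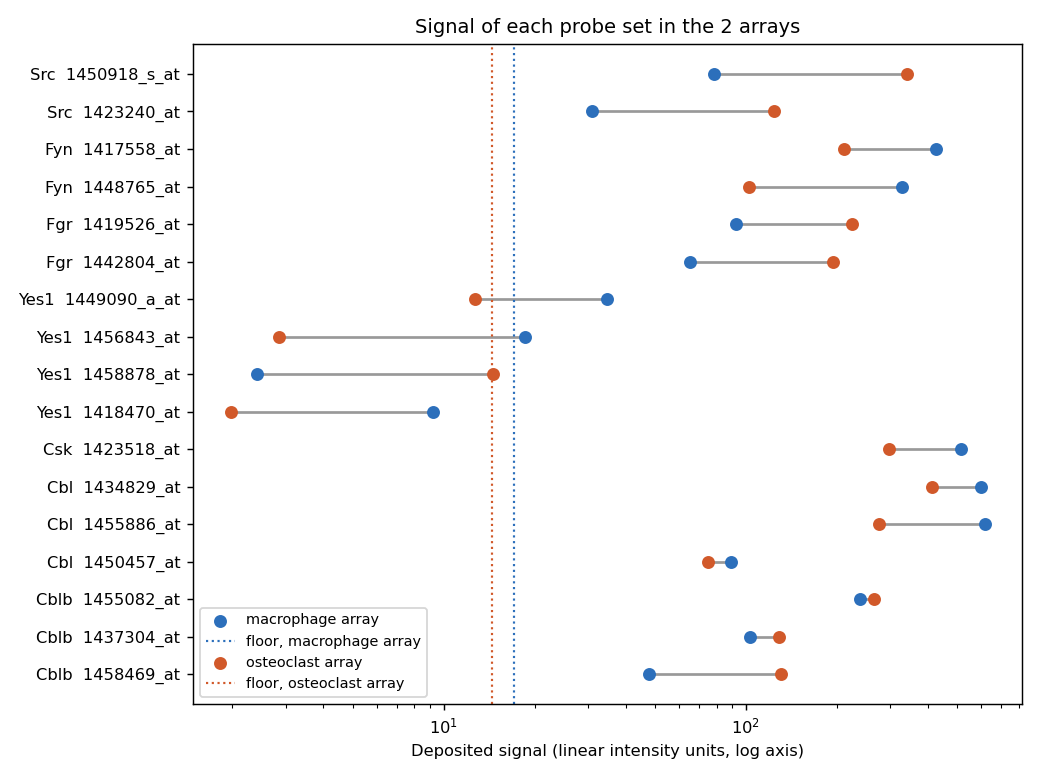
Deposited signal of each of the 17 probe sets, on a log axis, in the macrophage array (blue) and the osteoclast array (orange), with the floor of each array as a dotted line. Both Src and both Fgr probe sets lie further right in osteoclasts, both Fyn probe sets further left, and the 4 Yes1 probe sets lie near or under the floors.

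Src, the founding member of the family, had the highest difference of the 7 genes. Its brightest probe set, 1450918_s_at, read 78.3 in macrophages and 341 in osteoclasts. That is a deposited difference of 2.12 and a difference of 2.55 relative to the shift, or 5.87-fold. The dimmer probe set, 1423240_at, gave 30.9 and 123.6, a difference of 2.44, or 5.41-fold. The macrophage signal of the dimmer probe set was close to the level of 28.3 that marks the 95th percentile of probe sets for odour and pheromone receptors, which these cells are not expected to express, while its osteoclast signal lay well above the corresponding 25.8. The 2 probe sets differed from each other by 0.12, less than the median span of 0.38 among the 3146 genes with 2 probe sets measured in both arrays. Both are annotated to the same source sequence, so they are not independent readings of Src. Of all genes measured, 0.718% had a higher difference than Src.

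Fgr, a family member of myeloid cells, followed. Its brightest probe set, 1419526_at, gave 92.6 in macrophages and 223.5 in osteoclasts, a difference of 1.70, or 3.26-fold. Its other probe set, 1442804_at, gave 65.2 and 194, or 4.01-fold. These 2 probe sets are annotated to different source sequences and differed by 0.30, also under the median span of such genes. A higher difference than that of Fgr was seen in 1.99% of all genes measured. Fgr is also a gene of granulocytes, and granulocyte markers moved in the same direction: of 11 measured, 9 passed 2-fold on the higher side and 0 on the lower, with a median of 1.39. As deposited, 5 did so and the median was 0.96. The summed signal of the 12 such markers with a probe set was 3833 in macrophages and 6673 in osteoclasts. Among them the neutrophil elastase gene Elane gave 4.24 and 45.6, Mpo 36.2 and 89.3, and the calcium-binding protein gene S100a9 904 and 2161, while the chemokine receptor gene Cxcr2 was under the floor in both arrays and Mmp8 differed by -0.22. The part of granulocytes in the Fgr value was not tested.

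Fyn, a broadly expressed member known from T cells and neurons, went the other way. Its probe set 1417558_at gave 427 in macrophages and 210.4 in osteoclasts, a difference of -0.59. The other probe set, 1448765_at, gave 328 and 102.4, a difference of -1.25, or 2.38-fold. Both lay on the lower side, and 1 of them passed 2-fold relative to the shift, while both did as deposited (-1.02 and -1.68). The gap of 0.66 between them was larger than in 72.6% of genes with 2 probe sets measured in both arrays, although both are annotated to the same source sequence. Of all genes measured, 16.8% had a lower difference than the brighter Fyn probe set. Markers of T and NK cells were dim: 6 of 8 were under the floor in each array, though not all the same ones. Cd3e, Cd3d, Cd3g and Cd4 were under it in both arrays. Cd5 gave 12.9, under the floor, and 44.9, a difference of 1.83 with the macrophage signal raised to the floor. Cd8a gave 48.7 and 23.2, a difference of -0.64. The part of T and NK cells in the Fyn value was not tested. Of 9 stromal and osteoblast markers with a probe set, 3 lay under the floor in macrophages and 2 in osteoclasts, and the 7 measured had a median of -0.56, with 1 at least 2-fold higher and 1 lower. The summed signal of 12089 in macrophages and 6074 in osteoclasts came mostly from Col1a2 (5744 and 2895), Sparc (3705 and 1535) and Col1a1 (2078 and 1381), while other probe sets of Sparc and Col1a1 reached 1.23 and 0.77. Tnfrsf11b (189 and 60.9) and Cxcl12 (307 and 130) differed by -1.20 and -0.81, each lower by all its measured probe sets. Dcn, a matrix proteoglycan gene, was dim and went the other way (15.3, under the floor, and 37.0), and Sp7 differed by 0.13. The part of stromal cells in the Fyn value was not tested.

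Yes1, a close relative of Src, was hardly measured. Its brightest probe set, 1449090_a_at, gave 34.6 in macrophages and 12.7 in osteoclasts, the latter under the floor. Raised to the floor, the osteoclast signal gave a difference of -0.83. With the floor at the receptor level of 25.8, nothing of this difference remained relative to the shift. The other 3 probe sets gave 18.6 and 2.85, 2.41 and 14.6, and 9.22 and 1.97, so that 2 of these were measured in 1 array each and 1 in neither. They give no direction for Yes1.

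**Figure D2:**
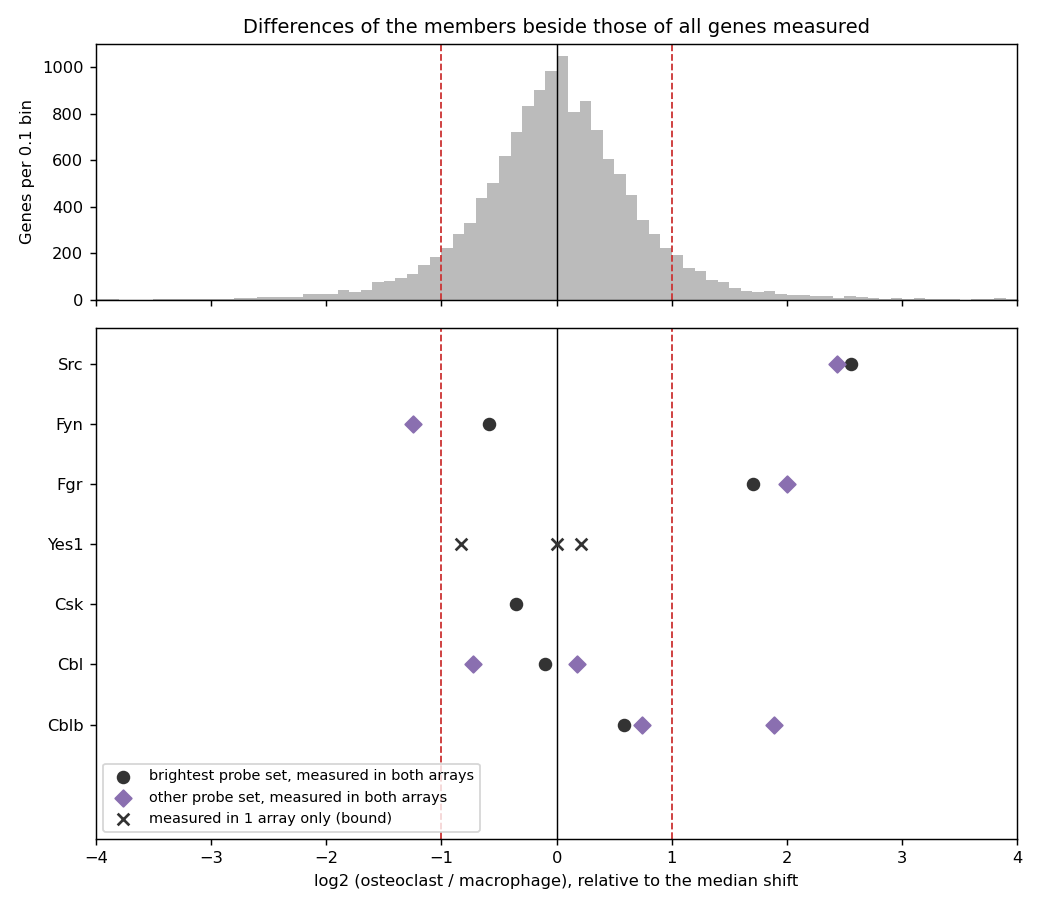
Top, the number of genes per 0.1 step of the log2 difference between osteoclasts and macrophages, relative to the shift, for the genes measured in at least 1 array (34 genes lie beyond the axis limits of 4 in either direction). Bottom, the same difference for each measured probe set of the 7 genes, with dashed lines at 2-fold and crosses for probe sets measured in 1 array, which are bounds held at 0 where the shift would turn their sign. Src lies at 2.44 and 2.55 and Fgr at 1.70 and above, while Fyn lies at -0.59 and -1.25.

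Csk, the kinase that closes the Src family, was read by 1 probe set, 1423518_at. The macrophage signal was 514 and the osteoclast signal 298, a deposited difference of -0.79 and a difference of -0.36 relative to the shift, or 1.28-fold. This is smaller than the probe set SD of 0.49. The Src and Csk differences, both read in the same pair of arrays, lay 2.91 apart on the log2 scale, or 7.52-fold. For Fgr the gap to Csk was 2.06, or 4.17-fold, and for Fyn it was -0.23. The gaps do not depend on the shift. They compare changes of transcript signal and say nothing of kinase activity.

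Cbl, closely related to Cblb, is described as a partner of Src in osteoclasts. It gave 599 in macrophages and 413 in osteoclasts with its brightest probe set, 1434829_at, a difference of -0.10. Its probe set 1455886_at gave 616 and 275, a difference of -0.73. The dimmest, 1450457_at, gave 89.2 and 74.8, a difference of 0.18. The 3 Cbl probe sets lay on both sides of the shift, although each was lower in osteoclasts as deposited, and none passed 2-fold relative to the shift.

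Cblb, known as a brake on immune receptor signalling, gave 239 in macrophages and 266 in osteoclasts with its brightest probe set, 1455082_at, a difference of 0.59. Probe set 1437304_at gave 103.5 and 128, a difference of 0.74. The dimmest, 1458469_at, gave 47.8 and 131, a difference of 1.89, or 3.70-fold. All 3 were higher in osteoclasts, also as deposited, but only the dimmest passed 2-fold. Their span of 1.30 was larger than in 87.1% of the 1367 genes with 3 probe sets measured in both arrays. Between the brightest probe sets Cblb lay 0.69 above Cbl, or 1.61-fold, and over the 9 pairs of probe sets the gap ran from 0.41 to 2.62. The annotation used here does not tell which transcript form each probe set reads.

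Counted by probe set, 5 of the 16 measured ones passed 2-fold on the higher side relative to the shift, namely the 2 of Src, the 2 of Fgr and 1 of Cblb, and 1 on the lower side, of Fyn. Over all single-symbol probe sets the shares were 7.97% higher and 7.48% lower. As deposited, 5 were higher and 4 lower, against 3.35% and 18.4%. Probe sets of 1 gene share a transcript and are not separate observations.

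Promoter windows are shown for the 3 genes whose probe sets all lay above the shift, Src, Fgr and Cblb, so that the letters near their starts can be read beside the values. They are the 250 bases before the annotated start, 5′ to 3′ on the gene's strand, from RefSeq with build GRCm38.p6, and all 7 genes matched by symbol. The Src window is chr2:157424043-157424292 on the plus strand, the Fgr window chr4:132973845-132974094 on the plus strand and the Cblb window chr16:52031299-52031548 on the plus strand. Capitals mark matches, on either strand, to short cores of factors known from osteoclast formation: GGAAA for NFAT, GAGGAA for PU.1, TGANTCA for AP-1 and CATGTG for MITF. The NFAT and PU.1 cores can overlap.
Src: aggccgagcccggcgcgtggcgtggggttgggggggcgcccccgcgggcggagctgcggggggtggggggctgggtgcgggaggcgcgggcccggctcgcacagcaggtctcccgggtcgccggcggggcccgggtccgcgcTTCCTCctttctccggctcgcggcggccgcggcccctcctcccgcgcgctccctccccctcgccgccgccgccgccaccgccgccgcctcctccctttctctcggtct
Fgr: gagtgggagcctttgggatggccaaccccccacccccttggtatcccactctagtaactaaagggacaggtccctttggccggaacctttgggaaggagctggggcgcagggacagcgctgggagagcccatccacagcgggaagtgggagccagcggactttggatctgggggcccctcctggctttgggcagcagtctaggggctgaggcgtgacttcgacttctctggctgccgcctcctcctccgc
Cblb: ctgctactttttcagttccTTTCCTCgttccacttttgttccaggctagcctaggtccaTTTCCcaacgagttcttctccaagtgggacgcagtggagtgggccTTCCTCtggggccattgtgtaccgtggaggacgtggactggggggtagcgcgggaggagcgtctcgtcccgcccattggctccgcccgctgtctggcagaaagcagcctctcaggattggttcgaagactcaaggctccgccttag
Src had 1 match to the PU.1 core, starting at position -108 from the start, and Fgr had no match to any of the 4 cores. Cblb had 2 matches to the NFAT core and 2 to the PU.1 core. Of 32817 promoter windows of this length, 55.6% held the NFAT core, 23.3% the PU.1 core, 6.75% the AP-1 site and 12.3% the MITF core. Matches to the NFAT core are therefore common, while those to the other cores are less so. Among the other genes Fyn had none of the 4, Yes1 had 1 match to the MITF core, Cbl had 3 to the NFAT core and 1 to the PU.1 core, and both Csk windows held NFAT and PU.1 cores. The Src window was 82.8% G and C with 40 CpG pairs, against medians of 52.4% and 6 over all windows. That of Fgr was 64.4% with 9 and that of Cblb 58.8% with 14. The Yes1 window was 77.2% with 37 and the Cbl window 71.6% with 33, so a window rich in G and C was not particular to Src. A match is a description of letters and no binding was measured.

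Genes around these kinases were read from 5 lists holding 94 genes, of which 88 had a probe set and 86 were measured. Relative to the shift 11 passed 2-fold in each direction, with a median of -0.15. The shares over all genes were 7.11% higher and 6.99% lower. As deposited, 7 were higher and 18 lower, with a median of -0.58, where 2.997% and 17.5% of all genes passed. These shares are the background for each list below.

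Among other kinases of the Src and Csk type, 4 of 5 genes with a probe set were measured, and 1 was higher and 1 lower. Matk, a homologue of Csk that also acts on Src family tails, gave 54.7 in macrophages and 217 in osteoclasts, a difference of 2.42, and its other probe set gave 2.69. Srms, a distant relative of Src, gave 56.8 and 7.48, the latter under the floor. Relative to the shift, and with the dimmer signal at the receptor level, it was at least 1.63-fold lower, under 2-fold. Blk, Frk and Ptk6 were dim or within 2-fold.

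Csk docking proteins and phosphatases of the Src family moved both ways. Of 16 measured genes, 2 were at least 2-fold higher and 3 lower, with a median of -0.02. Ptpn22, a phosphatase that partners with Csk, gave 306 and 896, a difference of 1.98, and the adaptor Dok3 gave 175 and 338, a difference of 1.38. The receptor phosphatase Ptpra, which removes the inhibitory tail phosphate, gave 2526 and 658, a difference of -1.51, with its other probe set at -1.45. The adaptor Dok2 gave 793 and 196 (-1.59), and the phosphatase Ptpn18 gave 1459 and 497 (-1.12), with its other probe set at -0.91. Of other phosphatases that act on Src family kinases, Ptprc, which encodes CD45, differed by 0.21 and Ptpre by 0.60, and Ptprj by -0.38 with its probe sets from -1.09 to 1.36, while the membrane anchor of Csk, Pag1, differed by -0.53. As deposited, 1 gene of this list was 2-fold higher and 3 were lower.

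Partners of Cbl were mostly near the shift. Of 19 measured genes, 1 was at least 2-fold higher and 1 lower, with a median of -0.11. With the deposited values 0 were higher and 3 lower, and the median was -0.54. Ubash3b, a phosphatase that binds Cbl and acts on Syk and Src family kinases, gave 579 and 155, a difference of -1.47, with its probe sets from -1.94 to -1.41. Spry1, a sprouty protein, gave 62.0 and 98.2, a difference of 1.10 and a deposited one of 0.66. The adaptors Sh3kbp1, which encodes CIN85, and Cd2ap differed by 0.47 and -0.76, and Grb2 by 0.11.

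Substrates and effectors of Src had 4 genes at least 2-fold higher and 2 lower among 29 measured, with a median of -0.15. Bcar1, the docking protein p130Cas, gave 126 and 276, a difference of 1.57, but its other probe set gave -0.14. Pik3cb, a catalytic subunit of phosphoinositide 3-kinase, gave 151 and 303 (1.44). Sh3pxd2a, the podosome scaffold TKS5, gave 279 and 508 (1.30), with its other probe set at 1.09. Cttn, the actin regulator cortactin, was the other higher gene, at 1.02, and is named after its value was seen. Its probe sets ran from 0.63 to 1.02, and its deposited difference was 0.59. On the lower side, Ptk2b, the focal adhesion kinase PYK2 to which Src and Cbl bind in osteoclasts, gave 799 and 201.0 (-1.56), with its other probe set at -1.61. The exchange factor Vav1 gave 509 and 156 (-1.27), with its other probe set at -0.97. As deposited, 2 genes of this list were higher and 4 lower.

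Receptors and adaptors that signal through these kinases showed the widest range of the 5 lists. Part of this range was set by the choice of genes. Oscar and Itgb3 are also among the osteoclast markers used to check the labels, and Fcgr1 is among the macrophage markers. Of 18 measured genes, 3 were at least 2-fold higher and 4 lower, with a median of -0.23. The immunoreceptor gene Oscar gave 25.0 in macrophages and 628 in osteoclasts. Relative to the shift, which itself adds 1.35-fold, and with the macrophage signal at the receptor level, this was at least 30.0-fold higher. Itgb3, the beta chain of the vitronectin receptor, gave 46.1 and 590.0 (4.11), and Met, the receptor of hepatocyte growth factor, 88.5 and 512 (2.96). The Fc receptor gene Fcgr1 gave 1425 and 141 (-2.91), Trem2 4201 and 685 (-2.18, with its other probe set at 0.18) and Fcgr3 3432 and 953 (-1.42). Sirpa, an inhibitory receptor named after its value was seen, was the remaining lower gene, at -1.05, with its probe sets from -1.05 to -0.76. As deposited, 3 were higher and 7 lower.

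**Figure D3:**
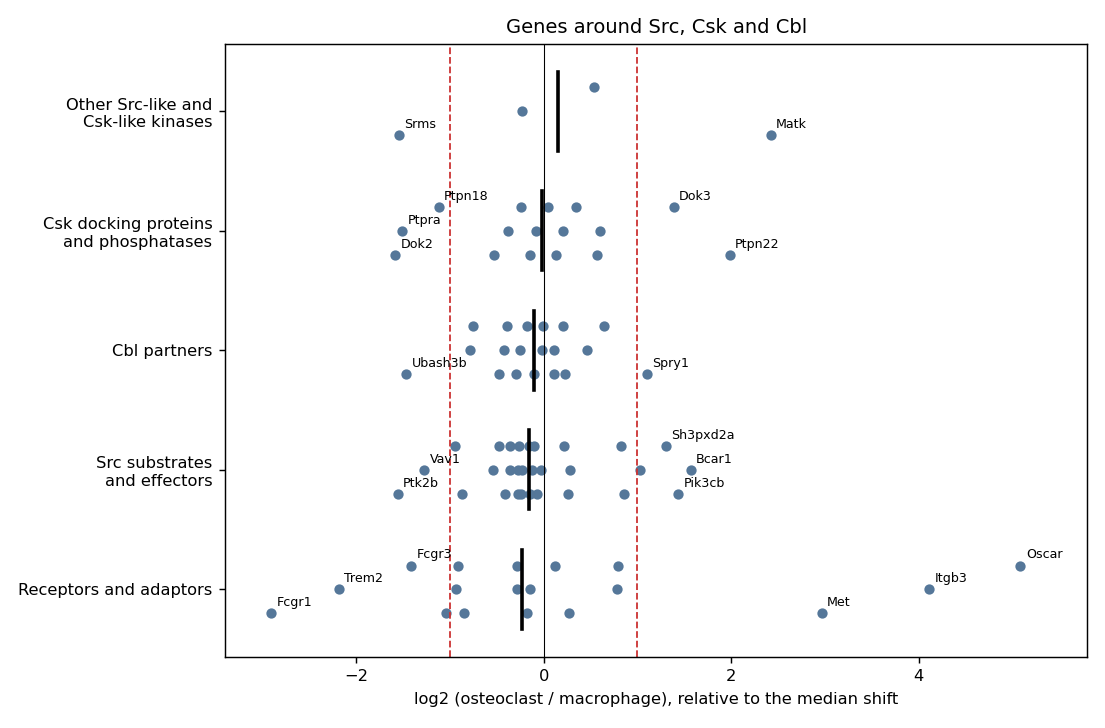
Log2 difference between osteoclasts and macrophages, relative to the shift, for each measured gene of the 5 lists, 1 point per gene, with the median of each list as a black bar, dashed lines at 2-fold and up to 3 names in each direction. The medians lie between -0.23 and 0.15, while Oscar, Itgb3, Met and Matk lie furthest to the right.

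The 3 genes whose signals in the 2 arrays came nearest to those of Src were Ifitm1 (85.1 and 325), G530011O06Rik (68.0 and 349) and Max (90.01 and 367), at distances of 0.14, 0.21 and 0.23 on the log2 scale. Nearest to Yes1, whose value of -0.83 was the lowest of the 7 only through an osteoclast signal under the floor, and which lay above Fyn with the floor at the receptor level, were Mfsd4a, 8030453O22Rik and Lrrc17, each with an osteoclast signal under the floor. With only 2 arrays, nearness says only that both signals are alike in size.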

How the data were processed

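The authors deposited a table with 1 linear intensity per probe set and array for 45101 probe sets. The sources used here do not say how probes were summarised, corrected for background or scaled, and no detection calls were used. Per the labels' protocols, 1 µg of total RNA was labelled as biotinylated cRNA in one cycle. Leaving out 64 controls, the 34945 probe sets with 1 symbol in the platform annotation, which can be old, were used, and the 932 with several and 9160 with none were not. The array annotation names no genome build. The Entrez identifiers of all 7 genes were found in RefSeq.

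Signals under the floor, the 40th percentile of each array, were raised to it. A fold given as "at least" sets the dimmer signal to the receptor level, the 95th percentile of 78 probe sets for olfactory and vomeronasal receptors, and 20.5% and 15.4% of these lay above the floor. The shift was taken from each log2 difference. Each gene was represented by its brightest probe set (mean log2 signal over both arrays) and called by size at 2-fold. Genes at the floor in both arrays were not counted. Named are the 7 genes with all probe sets, up to 3 genes per list and direction at least 2-fold apart, and the 3 genes nearest to the highest and lowest member. List genes named outside this rule were Cttn, Sirpa, Ptprc, Ptpre, Ptprj, Pag1, Sh3kbp1, Cd2ap, Grb2, Blk, Frk and Ptk6. The members and lists were chosen with earlier results of these data known. Calculations used Python 3.11.15, numpy 2.4.6 and pandas 2.3.3, checked on simulated data. The number of arrays limits the precision. Alternatives covered scale, floor, pseudocount and choice of probe set.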

Additional observations from a re-analysis of the deposited data

How the results depend on the processing

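The differences of Src, Fgr, Fyn, Csk, Cbl and Cblb moved by less than the probe set SD of 0.49 and kept their sign under all 7 alternatives, from 2.12 to 2.59 for Src, 1.27 to 1.85 for Fgr, -1.02 to -0.53 for Fyn, -0.79 to -0.31 for Csk, -0.53 to -0.04 for Cbl and 0.16 to 0.74 for Cblb. That of Yes1 ran from -1.27 to 0, and was 0 with the floor at the receptor level, with the median over probe sets and with plain _at probe sets only. For the genes other than Yes1, part of this stability was fixed in advance. Deposited values differ only by the shift of -0.43, smaller in size than the SD. The floor settings act on these genes only through the shift. For Csk and Cbl, the median and the plain _at setting returned the main value. The plain _at setting did so for Fyn, Fgr and Cblb as well. The number of the 7 genes at least 2-fold higher was 2 or, counted by any probe set, an alternative added after seeing the data, 3. The number at least 2-fold lower, 0 in the main setting, was 2 as deposited (Fyn and Yes1), 1 after quantile normalization and 1 without a floor (Yes1 at -1.01 and -1.06), and 1 by any probe set (Fyn). For the 5 lists, 11 genes higher and 11 lower became 7 and 18 as deposited, where no shift is taken out. The other alternatives left these list counts within 1.5 times, from 7 to 12 higher and 9 to 18 lower over all 7. No paired analysis was possible because each group has 1 array, and for the same reason no replicate could be left out. Signals near the floor, as for Yes1, limit what can be read.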
